A study of Mus musculus with 6 samples.

Results

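Small leucine-rich proteoglycans are secreted proteins of the extracellular matrix, and 8 of their genes (Dcn, Bgn, Aspn, Lum, Fmod, Prelp, Omd and Ogn) were followed through single-cell transcriptomes of the synovium of mouse knees, a thin tissue that encloses the joint cavity. The 8 genes were taken by symbol from the 31017 gene rows that all 6 count matrices hold. Each was read per library and per gated fibroblast subtype, and tendon-like cells were kept apart. The counts came from a droplet method with a 3' kit, in which a unique molecular identifier (UMI) marks each captured transcript. Levels are given as CPM, the UMIs of a gene per 1000000 UMIs of the same cells.

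Each of the 6 groups was 1 library, made from the pooled knee synovium of 10 mice, with living cells sorted without a gate for a cell type and 7000 cells loaded. A healthy wild-type library was set beside a healthy library with the genotype Notch3-/- knockout. An arthritic wild-type library was set beside an arthritic Notch3-/- knockout library. The last pair was an arthritic library under isotype control antibody and an arthritic library under the antibody antiNotch3 mAB. All 4 arthritic groups had received serum of K/BxN mice, which carries autoantibodies and inflames the joints of the recipients, and the healthy groups had not. The design of the knockout allele, the strain, the age, the antibody dose and the day of collection are not given in the sources used here. In this series the question is how Notch3, a receptor that conveys signals from blood vessels to neighbouring fibroblasts, shapes synovial fibroblasts in health and arthritis. In what follows, the knockout and antiNotch3 libraries are called targeted, and the wild-type and isotype libraries untargeted.

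Proteins of this family share a core of leucine-rich repeats with which they bind fibrillar collagens, and they set the width and spacing of collagen fibrils. Class I holds decorin (Dcn) and biglycan (Bgn), which carry chondroitin or dermatan sulfate chains and also bind TGF-beta, and asporin (Aspn), which lacks such a chain. Class II holds lumican (Lum), fibromodulin (Fmod), PRELP (Prelp) and osteomodulin (Omd), several of which carry keratan sulfate, and osteoglycin (Ogn) belongs to class III. Decorin is the abundant proteoglycan of skin and fibrous tissue, fibromodulin is known from tendon and cartilage, and soluble biglycan is known as a ligand of Toll-like receptors.

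The libraries held 11636998 to 24535233 UMIs, and 17898 cells were kept (2043 to 4897 per library). Fibroblasts without tendon-like cells numbered 1683 and 3356 in the healthy pair (wild type first), 1011 in arthritic wild type against 1661 in its knockout partner, and 1965 under isotype against 1052 under antiNotch3, with median depths of 4502 to 8248 UMIs per cell, and 482 further cells were tendon-like. Notch3 was at 4.96 CPM over all cells in healthy wild type and at 0.299 in healthy knockout, at 5.58 and 0.257 in the arthritic genotype pair, and at 3.30 under isotype and 2.21 under antiNotch3. An antibody does not remove the gene, so the last value checks no label. Library pairs shared 5 to 28 cell barcodes. The library tags of the healthy pair are far apart in number and those of each arthritic pair are adjacent. The tags alone do not show which libraries were prepared together. In every pair, healthy or arthritic, the genotype or antibody cannot be told apart from the library and its preparation. Since no group has a second library, intervals on single values cover counting error only. The tests rest on how far pairs or libraries disagree, together with a spread that edgeR shares over genes.

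The members lie in 4 places of the mouse genome (mm10, GENCODE annotation of that build, all protein coding). Aspn (chr13:49544443-49567565), Omd (chr13:49582462-49592822) and Ogn (chr13:49608046-49624501) follow each other on the plus strand behind Ecm2, a relative of the family, with gaps of 11.654, 14.897 and 15.224 kb from Ecm2 onwards. On chromosome 10, Dcn (chr10:97479609-97518143) is followed by Lum (chr10:97565128-97572703) and then by Kera and Epyc, the keratocan and epiphycan genes. Prelp (chr1:133910304-133921414, minus strand) and Fmod (chr1:134037254-134048277, plus strand) are 115.84 kb apart, and Bgn stands alone on the X chromosome (chrX:73483602-73495933). Promoter sequences (250 bases before to 50 after the gene start, RefSeq, build GRCm38.p6) matched 6 of the 8 symbols. The sequences of the chromosome 13 neighbours are shown because the 3 genes varied together over 40 sums per library and fibroblast subtype (Pearson's r of 0.71 to 0.78). Those of Prelp and Fmod are shown because these neighbours had a lower r of 0.54. Such r was not particular to neighbours: Prelp, on chromosome 1, had r of 0.82 to Ogn, 0.80 to Omd and 0.77 to Aspn. The neighbours Dcn and Lum had r of 0.49. Capitals mark matches, on either strand, to TATAAA (the letters of the TATA box, in Aspn and Ogn) and to TGGGAA (the core bound by RBPJ, the DNA-binding partner of Notch receptors, in Prelp). The TATAAA matches lie near the distal end of their windows, far before the gene start, and are not TATA boxes by position.
Aspn: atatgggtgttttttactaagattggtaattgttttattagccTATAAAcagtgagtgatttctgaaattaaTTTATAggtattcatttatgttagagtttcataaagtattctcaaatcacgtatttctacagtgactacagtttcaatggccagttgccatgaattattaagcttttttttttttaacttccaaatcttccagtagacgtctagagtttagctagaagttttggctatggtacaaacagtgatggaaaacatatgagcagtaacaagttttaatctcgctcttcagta
Omd: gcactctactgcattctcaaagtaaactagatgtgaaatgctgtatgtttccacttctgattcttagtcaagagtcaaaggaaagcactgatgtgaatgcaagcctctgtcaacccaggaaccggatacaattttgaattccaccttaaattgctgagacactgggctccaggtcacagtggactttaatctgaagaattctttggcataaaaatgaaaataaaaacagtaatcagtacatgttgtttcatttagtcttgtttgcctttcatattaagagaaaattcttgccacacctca
Ogn: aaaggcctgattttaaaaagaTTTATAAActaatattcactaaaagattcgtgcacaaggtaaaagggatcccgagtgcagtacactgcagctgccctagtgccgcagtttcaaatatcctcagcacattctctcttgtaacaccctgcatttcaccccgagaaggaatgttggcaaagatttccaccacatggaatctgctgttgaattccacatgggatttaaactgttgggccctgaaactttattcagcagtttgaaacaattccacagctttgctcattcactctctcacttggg
Prelp: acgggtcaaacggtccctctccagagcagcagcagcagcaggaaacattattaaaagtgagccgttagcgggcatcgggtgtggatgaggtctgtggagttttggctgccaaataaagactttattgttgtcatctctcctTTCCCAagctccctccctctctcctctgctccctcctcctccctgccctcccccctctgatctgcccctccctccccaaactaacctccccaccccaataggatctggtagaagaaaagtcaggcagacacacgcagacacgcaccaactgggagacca
Fmod: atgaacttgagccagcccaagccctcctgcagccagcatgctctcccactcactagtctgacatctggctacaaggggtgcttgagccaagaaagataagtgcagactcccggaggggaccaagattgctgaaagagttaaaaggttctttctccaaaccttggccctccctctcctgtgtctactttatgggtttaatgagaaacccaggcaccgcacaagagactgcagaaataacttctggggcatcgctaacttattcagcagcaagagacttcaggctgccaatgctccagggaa
The windows are chr13:49544193-49544492 (Aspn), chr13:49582212-49582511 (Omd), chr13:49607765-49608064 (Ogn), chr1:133921352-133921651 on the minus strand (Prelp) and chr1:134037004-134037303 (Fmod). On both strands, TATAAA was found in 2 of the 6 member promoters and in 13.6% of 32851 promoters of the same length, with 2 matches each in Aspn and Ogn, those of Ogn overlapping. TGGGAA was found in 1 of the 6 and in 25.6% of all promoters. CANNTG (the E-box) was found in 5 of the 6 (72.3% of all), CAGAC (the site bound by SMAD factors) in 2 (49.6%) and TGANTCA (the AP-1 site) in 0 (7.81%). A match describes the letters of the window and is no evidence of binding.

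Decorin dominated the family in fibroblasts, and its share was lowest in the 2 untargeted arthritic libraries. The 8 members together took 2.90% of fibroblast UMIs in healthy wild type, 1.97% in healthy knockout, 1.75% in arthritic wild type, 2.20% in arthritic knockout, 2.12% under isotype and 2.01% under antiNotch3. Of these member UMIs, Dcn made up 80.4%, 74.8%, 59.8%, 78.0%, 44.8% and 67.2%, in the same order. Bgn made up 6.11%, 9.33%, 21.8%, 8.27%, 25.6% and 14.8%, and Lum 6.98%, 6.85%, 13.4%, 6.76%, 17.7% and 8.82%. The arthritic wild-type and isotype libraries thus held the smallest Dcn shares and the largest Bgn and Lum shares of the 6. The 3' method counts each transcript at its end, so gene length does not enter these shares, although capture can differ between genes.

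Among the class I genes, Dcn was at 23329 CPM in healthy wild type, 14719 in healthy knockout, 10448 in arthritic wild type, 17177 in arthritic knockout, 9521 under isotype and 13534 under antiNotch3. The targeted library was lower than its partner in the healthy pair and higher in both arthritic pairs. For Bgn the 6 levels, in that order, were 1773, 1834, 3803, 1822, 5447 and 2985 CPM, highest in the 2 untargeted arthritic libraries and nearly level among the healthy pair and the arthritic knockout. Aspn, which is known to bind collagen and TGF-beta, was at 431, 461, 380 and 373 CPM in the 4 genotype libraries, and at 1434 under isotype and 922 under antiNotch3. Both antibody-treated libraries lay above the other 4 for Aspn, and the 2 untargeted arthritic libraries differed 3.77-fold from each other.

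Among the class II genes, Lum was at 2027 CPM in healthy wild type, 1348 in healthy knockout, 2344 in arthritic wild type, 1488 in arthritic knockout, 3756 under isotype and 1777 under antiNotch3. Lum was the member whose level was lower in the targeted library of all 3 pairs. The levels of Fmod, in that order, were 29.2, 63.6, 27.5, 24.6, 419 and 17.7 CPM, so the isotype library stood apart from the 5 others. That library also held 177 of the 281 fibrocartilage-like cells and 94 of the 482 tendon-like cells, and the markers of chondrocytes (5 genes) summed to 113 CPM in its fibroblasts against 2.37 to 25.6 in the others. Prelp was at 474, 305, 163, 327, 287 and 291 CPM, highest in healthy wild type and lowest in arthritic wild type. Omd, a gene first known from bone, was the rarest member at 22.5, 15.7, 4.86, 17.9, 7.0 and 12.6 CPM, from 33 to 333 UMIs per library. Ogn, of class III, was at 948, 920, 307, 795, 377 and 601 CPM. For Omd and Ogn the 2 untargeted arthritic libraries were the lowest of the 6, and the arthritic knockout was within the range set by the healthy pair for Omd only.

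**Figure D1:**
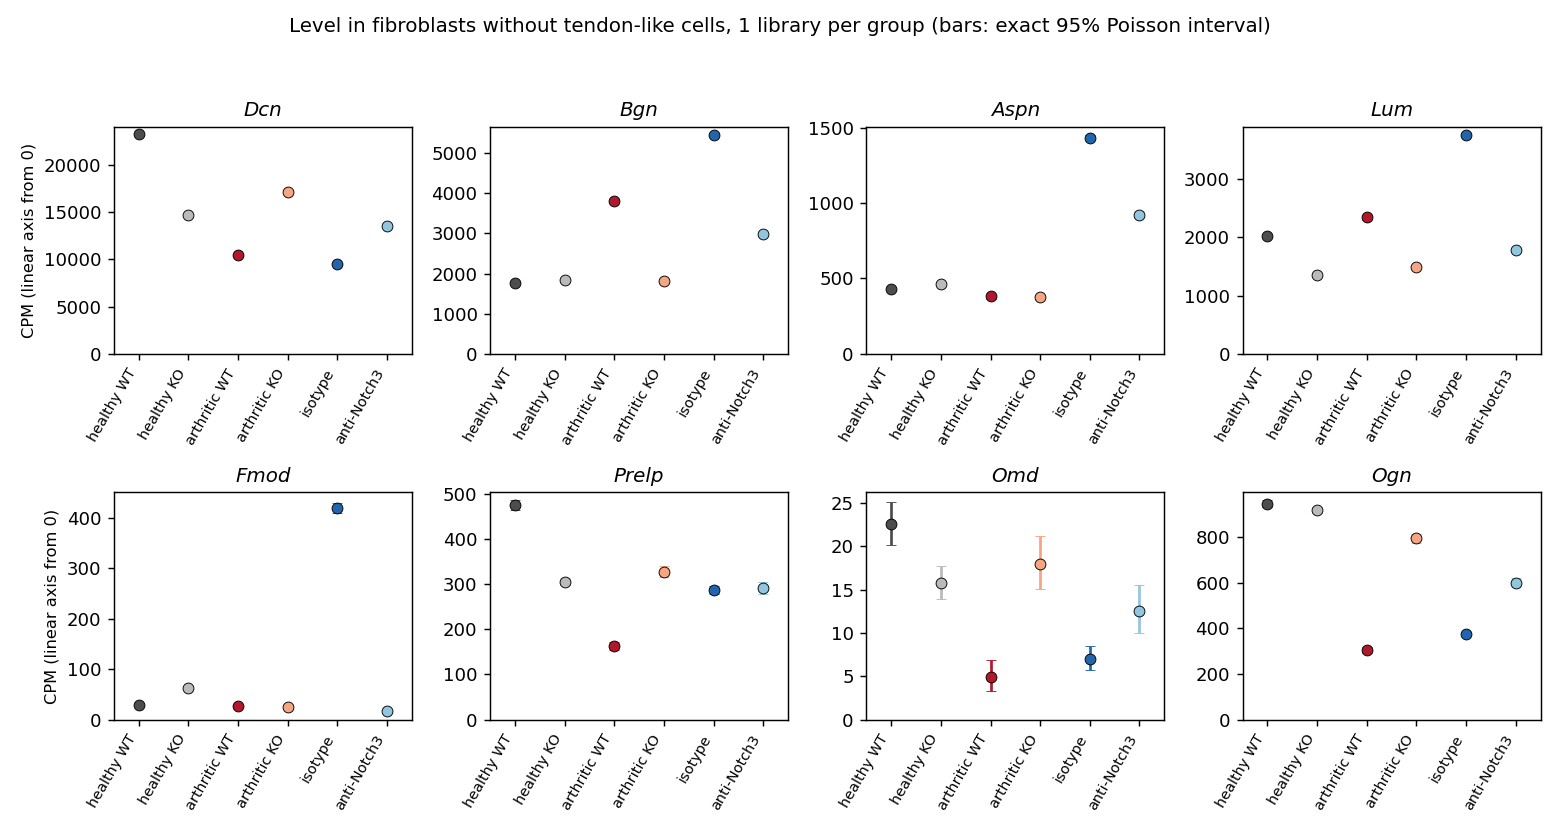
CPM of each member (linear axes from 0) in the fibroblasts of the 6 libraries, tendon-like cells left out; each point is 1 library and its bar the exact 95% Poisson interval, which covers counting error only. Dcn, Omd and Ogn are lowest in the arthritic wild-type and isotype libraries, Bgn and Lum are highest there, and Fmod is at 419 CPM under isotype against 17.7 to 63.6 in the other libraries.

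Fibroblasts were gated into 9 subtypes with markers that include no gene of the family: lining cells (Prg4, Clic5), which face the joint cavity, 4 sublining subtypes named for Pi16, Myoc, Ccl11 and Sfrp4, an Saa3 inflammatory and a Cthrc1 wound-type subtype, and fibrocartilage-like and tendon-like cells. Lining cells held the least of the family and tendon-like cells the most. The 8 members took 0.625% to 1.15% of UMIs in lining cells and 3.49% to 6.03% in tendon-like cells across the 6 libraries. The lining gate held Prg4, which encodes lubricin, at 76934 CPM and Clic5 at 1035 CPM. In tendon-like cells the defining markers were present, with Angptl7 at 6599 CPM, Thbs4 at 1350, Tnmd at 471, Scx at 129 and Mkx at 38.8. These markers made the 2 gates, so their levels are no separate support for the names. Tnmd was also among the leading genes of cluster 6, with Dkk2 and Myoc. Each subtype was tested against the mean of the other subtypes with edgeR's quasi-likelihood test on 40 sums of at least 30 cells, with the library as a block. Of 10066 genes tested, 21.8% were lower and 23.9% higher in lining cells, and 8.67% were higher and 6.24% lower in tendon-like cells.

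In lining cells 7 of 8 members fell against the other subtypes and Bgn was the exception. Ogn was at 33.6 CPM in healthy wild-type lining cells, 52.8 in healthy knockout, 12.7 in arthritic wild type, 16.9 in arthritic knockout, 8.94 under isotype and 9.09 under antiNotch3. Every other gated sum of at least 30 cells held more Ogn than these, except Saa3 inflammatory cells of arthritic wild type, whose 52.7 CPM was level with the lining cells of healthy knockout. Ogn fell by 4.97 on the log2 scale (SE 0.224, edgeR adjusted p = 4.58e-21). Myeloid cells held Ogn at 8.71 CPM under isotype and 6.97 under antiNotch3, near the lining values of these libraries. In the other libraries myeloid Ogn, at 2.40 to 14.9 CPM, lay under the lining cells of the same library. Omd fell by 4.56 (SE 0.534, edgeR adjusted p = 2.93e-09), with 0 to 2.53 CPM in lining cells. Aspn fell by 4.37 (SE 0.263, edgeR adjusted p = 3.46e-17) and Prelp by 3.97 (SE 0.229, edgeR adjusted p = 9.87e-18). The remaining calls were smaller for the abundant genes: Lum fell by 2.96 (SE 0.221) and Dcn by 1.67 (SE 0.139). Fmod fell by 3.36 (SE 0.640, edgeR adjusted p = 3.15e-05), a call that was lost when the healthy knockout library was left out (edgeR adjusted p = 0.111). Lining Fmod, at 0 to 11.5 CPM, lay near the 0 to 8.71 CPM found in myeloid cells, which should lack the gene. Bgn was at 2100 to 3254 CPM in lining cells, and its difference from the other subtypes was -0.03 (SE 0.155, edgeR adjusted p = 0.903). Bgn made up 21.8% to 40.6% of the member UMIs in lining cells.

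In tendon-like cells all 8 members rose. Fmod, whose protein is needed for regular collagen fibrils in tendon, was at 1887 CPM in healthy wild type, 3068 in healthy knockout, 661 in arthritic knockout and 3593 under isotype, the 4 libraries with at least 30 tendon-like cells. Every one of these values exceeded 323 CPM, the highest Fmod value of any gated sum outside the tendon-like and fibrocartilage-like cells. Fmod rose by 7.23 on the log2 scale (SE 0.362, edgeR adjusted p = 9.76e-19), Prelp by 3.02 (SE 0.169, edgeR adjusted p = 3.4e-17) and Omd by 2.75 (SE 0.252, edgeR adjusted p = 4.48e-11). Dcn rose by 1.23, Ogn by 1.22, Aspn by 1.10, Lum by 0.91 and Bgn by 0.69, with edgeR adjusted p-values of 1.06e-08 to 0.00525. The level of Dcn in tendon-like cells reached 47406 CPM in healthy wild type and was 13963 CPM under isotype. The cells behind this gate differed: cluster 16, led by Chad and Angptl7, held most of them in the healthy libraries (44 of 66 and 144 of 242), cluster 15, led by Acan and Col11a1, under isotype (58 of 94), and cluster 8, led by Sfrp4, the largest share in arthritic knockout (17 of 44).

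**Figure D2:**
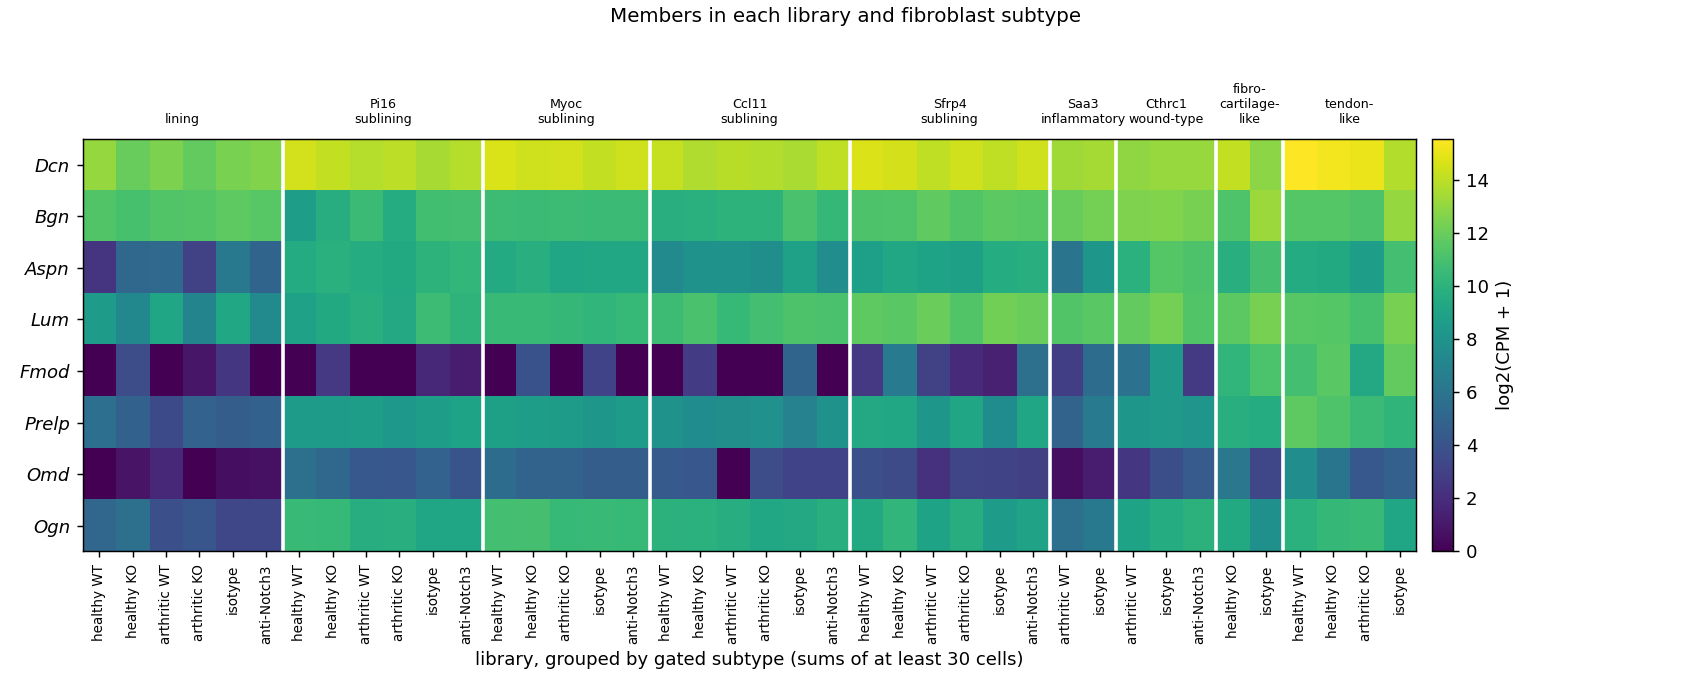
Level of each member, as log2(CPM + 1) by colour, in every library and subtype sum of at least 30 cells, 40 columns grouped by subtype. Aspn, Prelp, Omd and Ogn are dark in the 6 lining columns, Fmod is at 661 CPM or more in the fibrocartilage-like and tendon-like columns alone, and Dcn is the brightest row in all but the isotype fibrocartilage-like column.

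Fibrocartilage-like cells (41 cells in healthy knockout and 177 under isotype) resembled tendon-like cells for Fmod but not for Dcn and Ogn. Their Fmod was at 1186 and 2222 CPM and rose by 5.45 (SE 0.418, edgeR adjusted p = 1.01e-12). Prelp rose by 1.75, Aspn by 1.28, Lum by 1.05 and Bgn by 0.94, with edgeR adjusted p-values of 1.96e-06 to 0.0102, so that 5 of 8 members were called where 7.62% of all genes were. Dcn (-0.27), Ogn (-0.34) and Omd (1.34, edgeR adjusted p = 0.0682) did not pass. Bgn was at 2421 CPM in healthy knockout and 9427 under isotype, the highest Bgn sum of all. These 2 sums also came from different clusters, cluster 16 for the largest share in healthy knockout (13 of 41) and cluster 15 under isotype (120 of 177). Their other markers differed too. Osteoblast markers (5 genes) summed to 1995 CPM in healthy knockout and 38.5 under isotype, and chondrocyte markers (5 genes) to 334 and 702 CPM.

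Cthrc1 wound-type cells, tested in 3 arthritic libraries, combined the highest mean Aspn with low Dcn. The gap of Aspn to the next, fibrocartilage-like cells, was within the spread over libraries. Aspn was at 950 CPM in arthritic wild type, 2761 under isotype and 2314 under antiNotch3, and rose by 2.09 (SE 0.222, edgeR adjusted p = 6.86e-09). The 950 CPM lay under the highest sums of fibrocartilage-like (1954 CPM), tendon-like (1888) and Pi16 cells (1268). Bgn, at 6006, 6037 and 5195 CPM, rose by 0.91 (edgeR adjusted p = 0.00172). Ogn rose by 1.39 (edgeR adjusted p = 9.28e-07). Fmod rose by 2.27 (edgeR adjusted p = 0.00207), but this call rested on the isotype library, without which it was 1.17 (edgeR adjusted p = 0.457). Lum rose by 0.82 (edgeR adjusted p = 0.016; 0.0546 without the arthritic wild-type library), and Dcn fell by 0.64 (edgeR adjusted p = 0.0148; 0.116 without the arthritic wild-type and 0.220 without the antiNotch3 library). Omd (0.99, edgeR adjusted p = 0.0594) and Prelp (0.29) did not pass. In all, 6 of 8 members were called in these cells, against 9.66% of all genes.

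The sublining subtypes split the family in different ways. Myoc cells held the most Ogn, at 1860 CPM in healthy wild type, 2006 in healthy knockout, 1343 in arthritic knockout, 1426 under isotype and 1364 under antiNotch3, and Ogn rose there by 2.12 (SE 0.147, edgeR adjusted p = 5.95e-14). Omd (1.38), Aspn (0.89) and Dcn (0.71) rose in Myoc cells as well, while Fmod fell by 2.79 and Bgn by 0.60, so 6 of 8 members were called against 19.2% of all genes. Prelp (0.40, edgeR adjusted p = 0.129) and Lum (-0.25) did not pass there, and Prelp was called with a stricter gate (0.80, edgeR adjusted p = 0.00262). In Pi16 cells Omd (1.35), Aspn (1.21), Ogn (1.20) and Prelp (0.47) rose, and Bgn (-1.38), Lum (-1.24) and Fmod (-4.47) fell, 7 of 8 against 19.6%, with Dcn at 0.10. In Ccl11 cells Ogn rose (1.10), and Bgn (-1.21), Aspn (-0.87), Prelp (-0.57) and Fmod (-3.78) fell, 5 of 8 against 25.7%. Dcn (0.06), Omd (0.06) and Lum (0.21, edgeR adjusted p = 0.432) did not pass there, but Lum was called with a stricter gate (1.02, edgeR adjusted p = 8.68e-05) and without the isotype library (0.53, edgeR adjusted p = 0.0227). In Sfrp4 cells Lum rose by 1.19 (SE 0.164, edgeR adjusted p = 1.29e-06), and Prelp (0.81), Ogn (0.75), Dcn (0.67) and Aspn (0.64) rose too, 5 of 8 against 7.12%. Bgn (0.23), Omd (-0.57) and Fmod (-0.02, SE 19.4) did not pass there. The rises and falls in this paragraph without a p of their own had edgeR adjusted p-values under 0.05. The lower Fmod of Pi16, Myoc and Ccl11 cells was lost without the healthy knockout library (edgeR adjusted p = 0.191, 0.0990 and 0.316), and in Myoc cells also without isotype (0.0888). Also lost without at least 1 library were Bgn in Myoc cells (without isotype or antiNotch3), Prelp in Pi16 cells (without arthritic wild type, isotype or antiNotch3), Prelp in Ccl11 cells (without either healthy library), Aspn in Sfrp4 cells (without arthritic wild type, arthritic knockout or antiNotch3) and Ogn in Sfrp4 cells (without arthritic wild type or isotype). A stricter gate also ended the calls of Bgn in Myoc cells (-0.28, edgeR adjusted p = 0.399) and Prelp in Ccl11 cells (-0.25, edgeR adjusted p = 0.508).

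Saa3 inflammatory cells, present in number only in arthritic wild type (231 cells) and under isotype (239 cells), were the nearest to lining cells for Ogn, Prelp, Omd and Aspn by mean log2 level. Ogn was at 52.7 and 76.6 CPM and fell by 2.47 (edgeR adjusted p = 1.94e-07), Prelp at 29.5 and 88.0 CPM fell by 2.20 (edgeR adjusted p = 5.43e-06), Omd fell by 2.75 (edgeR adjusted p = 0.00997) and Aspn by 1.97 (edgeR adjusted p = 0.000103). With 4 of 8 members called, the background of all genes called in these cells was 14.7%. Lum, at 2549 and 3048 CPM, and Bgn, at 3934 and 5071 CPM, did not pass (0.28 and 0.46), nor did Dcn (-0.18) and Fmod (-0.53). Over all 9 subtypes, 53 of 72 tests of a member against the other subtypes were called. Of these, 41 held under every alternative gate, filter, scaling and left-out library, and 12 were lost when some library was left out, 2 of them with the stricter gate too.

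**Figure D3:**
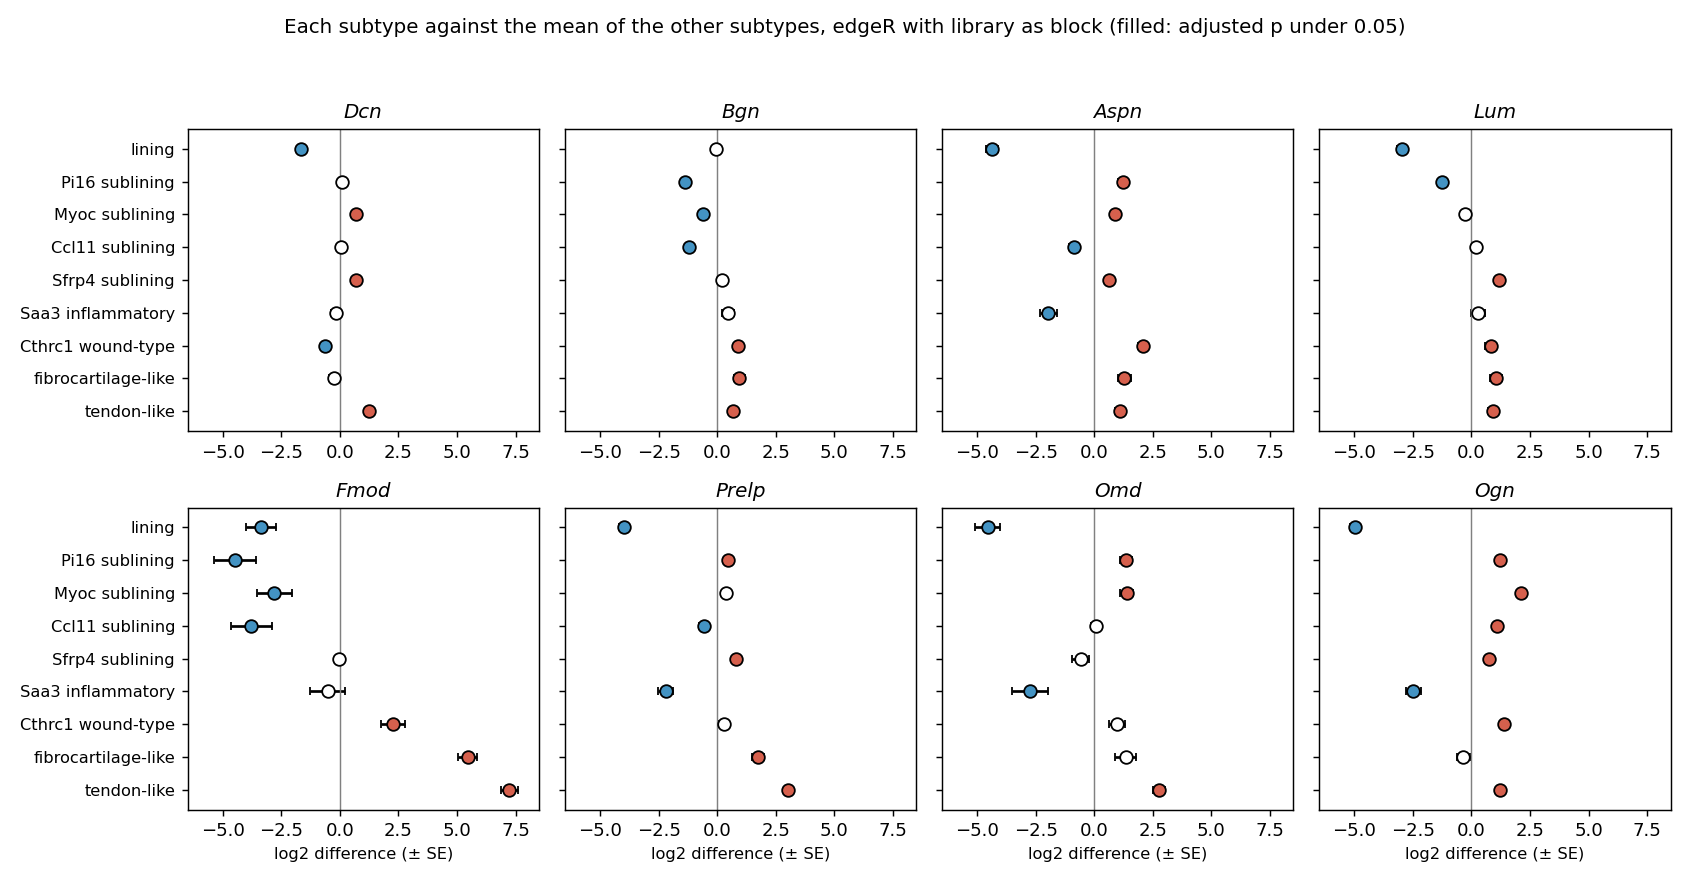
Log2 difference of each member between a subtype and the mean of the others (points, with bars of 1 SE; red points rose and blue points fell at an edgeR adjusted p under 0.05, open points did not pass). Prelp runs from -3.97 in lining cells to 3.02 in tendon-like cells and Omd from -4.56 to 2.75 in the same cells, while Fmod runs from -4.47 in Pi16 cells to 7.23 in tendon-like cells and Ogn from -4.97 in lining cells to 2.12 in Myoc cells; the SE of Fmod in Sfrp4 cells is too wide to draw and is left off.

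The order of levels over the 9 subtypes differed between members of the same class. By mean log2 level, Dcn ran from tendon-like (median 36425 CPM, 13963 to 47406) through Myoc and Sfrp4 cells down to lining cells (5559 CPM, 3625 to 8523), and the first 3 did not differ beyond their spread over libraries. Bgn ran from Cthrc1 cells (6006 CPM) to Pi16 cells (1184 CPM), and no gap between the first 6 neighbours exceeded the spread. Lum was highest in fibrocartilage-like (4192 CPM), Cthrc1 (3517 CPM) and Sfrp4 cells (3668 CPM), with no gap beyond the spread, and lowest in lining cells (270 CPM). Ogn had its highest mean in Myoc cells (median 1426 CPM), although the tendon-like cells of arthritic knockout, at 1403 CPM, exceeded the Myoc cells of that library (1343) and of antiNotch3 (1364), and it was lowest in lining cells (14.8 CPM). Prelp had tendon-like cells (1977 CPM) and fibrocartilage-like cells (845 CPM) each apart from the next. Over the 40 sums, which share libraries and depth, Pearson's r of log2 levels was 0.82 for Ogn and Prelp, 0.81 for Dcn and Prelp, 0.79 for Dcn and Ogn and 0.78 for Omd and Ogn. Bgn stood outside this block, with r of -0.32 to Dcn, -0.35 to Ogn and 0.59 to Fmod. The neighbours Aspn and Omd had r of 0.71, and Aspn and Ogn 0.76.

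The pairs of libraries were set side by side over all fibroblasts. For 7 of 8 members the targeted library differed from its partner in one direction in the healthy pair and in the other in both arthritic pairs, and Lum was lower in all 3. The share of all genes with this pattern is not given, so the count has no background and marks no trait of the family. All 3 counting intervals excluded 0 for 4 of these 7, Dcn, Bgn, Omd and Ogn. They did not for Aspn (-0.03, -0.10 to 0.05) and Fmod (-0.16, -0.46 to 0.14) in the arthritic genotype pair and Prelp in the antibody pair (0.02, -0.06 to 0.10). With equal weight of the subtypes Ogn was above 0 in all 3 pairs (0.13, 0.14 and 0.18) and Omd turned in the antibody pair (-0.11), and in gated cells alone Aspn turned in the healthy pair (-0.098) and Prelp in the antibody pair (-0.033). These ratios were not scaled between libraries beyond their total UMIs. In the healthy pair Ogn (-0.042) lay above the median of all genes (-0.11), and with tendon-like cells kept Ogn was at -0.0046. The direction of Ogn in that pair is therefore not firm. In the arthritic genotype pair Ogn was 2.59-fold higher in the knockout (log2 1.37, 95% counting interval 1.30 to 1.44), Omd 3.68-fold, Prelp 2.01-fold and Dcn 1.64-fold, while Bgn was 2.09-fold and Lum 1.57-fold lower. In the antibody pair Omd was 1.80-fold and Ogn 1.60-fold higher under antiNotch3, and Fmod was 23.6-fold, Lum 2.11-fold, Bgn 1.82-fold and Aspn 1.55-fold lower. In the healthy pair Fmod was 2.18-fold higher in the knockout and Dcn 1.58-fold, Prelp 1.55-fold and Lum 1.5-fold lower. Counted at 1.5-fold in either direction, 6 of 8 members passed in the arthritic genotype pair (29.2% of all genes), 6 in the antibody pair (23.5%) and 4 in the healthy pair (28.3%). The median of the 8 log2 ratios was 0.35, -0.31 and -0.28, beside -0.07, -0.06 and -0.11 over all genes with at least 20 UMIs. These are ratios of single libraries, with no replicate check.

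Arthritis itself was read in each genotype. In wild type, Bgn was 2.14-fold higher in the arthritic library and Omd 4.64-fold, Ogn 3.08-fold, Prelp 2.91-fold and Dcn 2.23-fold lower, 5 of 8 members past 1.5-fold against 34.3% of all genes, with a median of -0.67. In the knockout, Fmod was 2.59-fold lower and the other 7 stayed within 1.5-fold, against 18.4% of all genes, with a median of 0.05. The wild-type and knockout ratios share libraries with the genotype pairs and are no separate evidence. Between the 2 untargeted arthritic libraries, which the design does not contrast, isotype exceeded wild type 15.2-fold for Fmod, 3.77-fold for Aspn, 1.76-fold for Prelp and 1.60-fold for Lum, 4 of 8 members past 1.5-fold against 21.0% of all genes.

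With equal weight of the subtypes, 6 of 8 ratios of the arthritic genotype pair and 7 of 8 of the antibody pair were nearer to 0. Over the 4 subtypes with at least 30 cells in both libraries of the arthritic genotype pair, the log2 ratio of Ogn went from 1.37 to 0.14, of Dcn from 0.72 to 0.09, of Prelp from 1.01 to 0.27 and of Bgn from -1.06 to -0.31. In the antibody pair (6 subtypes) Bgn went from -0.87 to -0.18, Ogn from 0.67 to 0.18 and Lum from -1.08 to -0.45. Aspn (-0.03 to -0.21) and Fmod (-0.16 to -0.92) went the other way in the genotype pair, and Prelp (0.02 to 0.55) in the antibody pair. In the healthy pair (5 subtypes) Fmod went from 1.12 to 4.57, with 0 to 4.93 CPM in the wild-type sums of these subtypes. The mix of cells differed between the libraries: Cthrc1 wound-type cells numbered 146 of 1011 in arthritic wild type, 6 of 1661 in arthritic knockout, 567 of 1965 under isotype and 139 of 1052 under antiNotch3. Saa3 inflammatory cells numbered 231, 4, 239 and 13 in the same order, and Myoc cells 26, 310, 30 and 132. The part of this mix in the ratios was not tested.

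**Figure D4:**
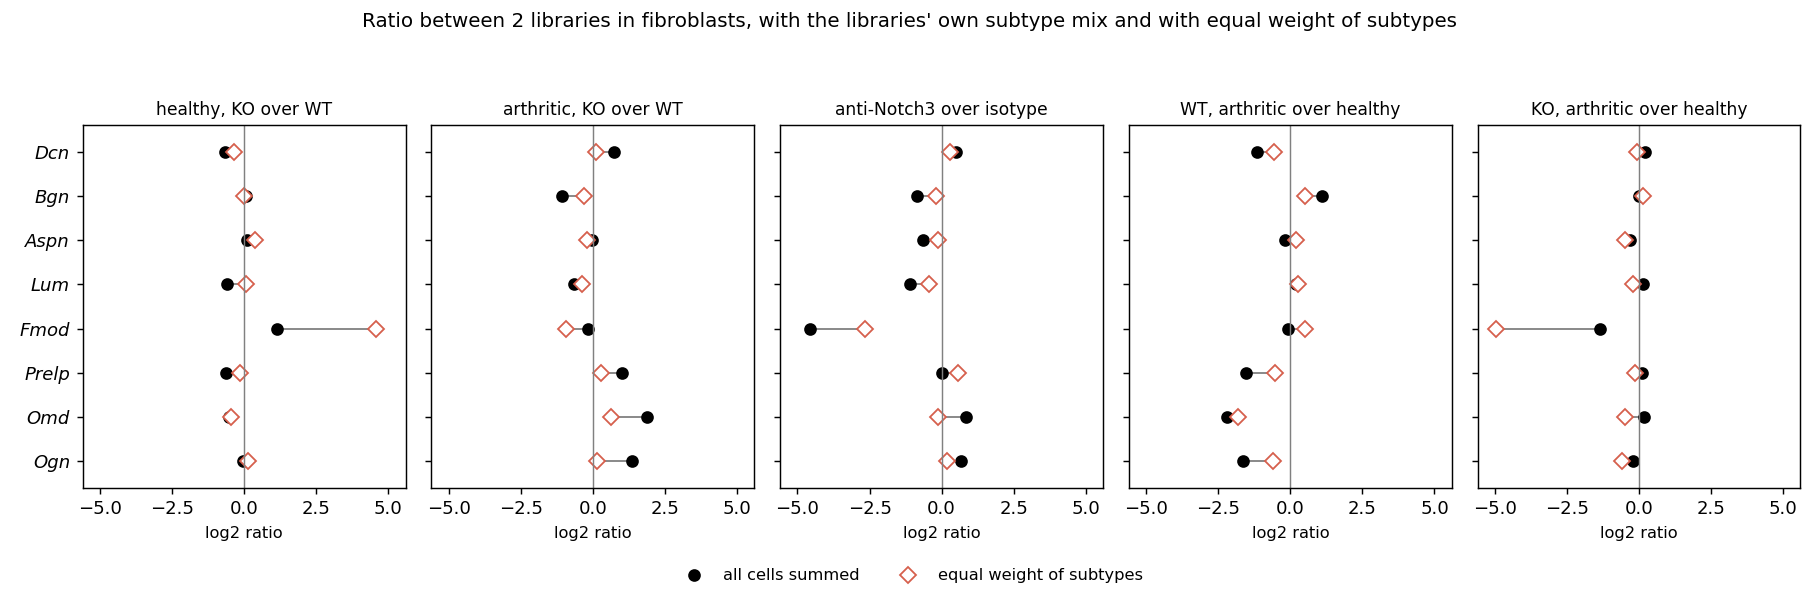
Log2 ratio of each member between 2 libraries in fibroblasts, in 5 panels. Filled circles have all cells summed, and open diamonds give equal weight to the subtypes with at least 30 cells in both libraries, without ungated cells. In the arthritic genotype pair the diamonds of Dcn, Bgn and Ogn lie at 0.09, -0.31 and 0.14, nearer to 0 than the circles at 0.72, -1.06 and 1.37.

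No member passed the tests over all fibroblasts. For targeting in the 2 arthritic pairs, a gene's own spread is the disagreement between knockout and antibody (1 residual degree of freedom). There, edgeR called 308 of 13272 genes (2.32%), 184 higher and 124 lower, and 0 of the 8 members. At an unadjusted p under 0.05, 4 members passed, beside 2408 of the 13272 genes, and DESeq2 called 2 members. Omd had a log2 change of 1.38 (SE 0.290, edgeR adjusted p = 0.0872), Ogn 1.09 (SE 0.235, edgeR adjusted p = 0.0924), Bgn -0.90 (SE 0.223, edgeR adjusted p = 0.122) and Lum -0.80 (SE 0.228, edgeR adjusted p = 0.157), each with the same sign in both pairs. Dcn was at 0.68 (edgeR adjusted p = 0.310), Prelp at 0.58 (0.339), Aspn at -0.27 (0.569) and Fmod at -2.34 (SE 1.11, 0.343). Over 10 alternatives every direction was kept, and Ogn was called in 4, Bgn in 3 and Omd in 2 of them. Without a filter on low counts, for example, edgeR called 996 genes, against 308 with it. Among them were Omd (1.37, edgeR adjusted p = 0.00544), Ogn (1.08, adjusted p = 0.0104) and Bgn (-0.91, adjusted p = 0.0362). The median over the members was 0.15, beside -0.00 over all genes.

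Over all 3 pairs with a single targeting term, edgeR called 0 of 12704 genes (0.0%), with 1091 at an unadjusted p under 0.05 and 176 by DESeq2. None of the 8 members was called, and Lum (-0.71, adjusted p = 0.421) and Ogn (0.73, adjusted p = 0.574) passed an unadjusted p of 0.05. For arthritis against healthy over both genotypes, edgeR again called 0 of 12704 genes (0.0%), with 512 at an unadjusted p under 0.05 and 7 by DESeq2, and 0 of 8 members. Ogn was at -0.90 (SE 0.359), Omd at -0.94 (SE 0.555), Prelp at -0.68, Dcn at -0.48, Bgn at 0.54, Aspn at -0.23, Lum at 0.20 and Fmod at -1.0, with edgeR adjusted p-values of 0.936 to 0.945. The median of the members in that contrast was -0.58, beside -0.01 over all genes. For the difference of the targeting effect between the arthritic pairs and the healthy pair, edgeR called 50 of 13272 genes (0.377%; 2138 at an unadjusted p under 0.05, 160 by DESeq2) and 0 of 8 members, of which 3 passed an unadjusted p of 0.05. Omd was at 1.82 (SE 0.460, edgeR adjusted p = 0.170), Dcn at 1.27 (0.312), Prelp at 1.14 (0.314), Ogn at 1.06 (0.293), Bgn at -1.02 (0.289), Fmod at -3.54 (0.366), Aspn at -0.44 (0.594) and Lum at -0.29 (0.745).

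Within single subtypes, targeting in the arthritic pairs could be tested in 4 of them, and 3 members were called in all. Each fit held the 4 arthritic libraries, with pair and targeting as terms and 1 residual degree of freedom. These p-values therefore rest largely on a spread that edgeR shares over genes, and are no replicate evidence for a single gene. In lining cells edgeR called 89 of 8107 genes (1.1%) and 2 of the 6 members that passed the filter on low counts, which Fmod and Omd did not. Lum was at 562 CPM in arthritic wild-type lining cells (444 UMIs) and 129 in arthritic knockout (137 UMIs), and at 638 under isotype (1285 UMIs) and 174 under antiNotch3 (268 UMIs). Both targeted values were under both untargeted values, and close to the 152 CPM of healthy knockout, while healthy wild type was at 367 CPM. Lum fell by 1.96 on the log2 scale (SE 0.218, edgeR adjusted p = 0.00100). Aspn went from 39.2 CPM in arthritic wild type to 7.53 in arthritic knockout, and from 76.0 under isotype to 31.2 under antiNotch3, on 8 to 153 UMIs. It fell by 1.56 (SE 0.313, edgeR adjusted p = 0.0301). In cells of the lining cluster led by Clic5 alone, an alternative added after the data had been seen, Lum fell by 1.63 (edgeR adjusted p = 3.41e-05) and Aspn was at -0.99 (edgeR adjusted p = 0.211). With a stricter gate Aspn was at -0.76 (edgeR adjusted p = 0.687). Bgn (-0.06), Dcn (-0.22), Ogn (0.24) and Prelp (0.73, edgeR adjusted p = 0.574) did not pass in lining cells.

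Values that moved with these calls were measured as well. Myeloid cells, which should lack Lum, held 30.1 CPM in arthritic wild type, 10.4 in arthritic knockout, 83.2 under isotype and 13.7 under antiNotch3, so this background was lower in the targeted libraries too. For Aspn it was 2.29, 3.17, 20.9 and 4.02 CPM. The share of lining-gated cells outside the Clic5-led cluster was larger in the untargeted libraries (35 of 116 and 37 of 249) than in the targeted ones (6 of 157 and 6 of 195). The call for Lum within that cluster is given above, and the part of free RNA was not tested.

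In Sfrp4 cells edgeR called 123 of 5668 genes (2.17%) and 1 of 6 members tested. Prelp was at 298 CPM in arthritic wild type, 550 in arthritic knockout, 190 under isotype and 561 under antiNotch3. The targeted values were near those of the healthy pair, 664 and 622 CPM, and both untargeted values were lower. Prelp rose by 1.27 (SE 0.265, edgeR adjusted p = 0.00128), and Ogn (0.59, edgeR adjusted p = 0.322), Dcn (0.41), Lum (-0.43), Bgn (-0.23) and Aspn (0.04) did not pass. Different clusters held this gate: cluster 3, led by Saa3 and Hp, had the largest share in arthritic wild type (21 of 48) and under isotype (57 of 88), and cluster 7, led by Cfd and Car3, in arthritic knockout (44 of 141) and under antiNotch3 (30 of 89). In Pi16 cells edgeR called 213 of 5468 genes (3.9%) and 0 of 6 members. At an unadjusted p under 0.05 were 2 members and 746 of all genes. Lum was at -0.48 (edgeR adjusted p = 0.147), Bgn at -0.43 (0.273) and Dcn at 0.26 (0.389). A stricter Pi16 gate called these 3, Lum at -0.71 (edgeR adjusted p = 0.0108), Bgn at -0.62 (0.0229) and Dcn at 0.37 (0.0457). Different clusters held the Pi16 gate as well: cluster 9, led by Mfap4, H19 and Postn, held most of it under isotype (45 of 72), and cluster 5, led by Stmn4 and Pi16, the largest share in arthritic wild type (48 of 81), arthritic knockout (119 of 143) and under antiNotch3 (64 of 132). In Ccl11 cells edgeR called 2 of 2497 genes (0.0801%) and 0 of 6 members, none of them at an unadjusted p under 0.05, and Aspn was nearest (-0.70, adjusted p = 0.698). DESeq2 was not run within subtypes.

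**Figure D5:**
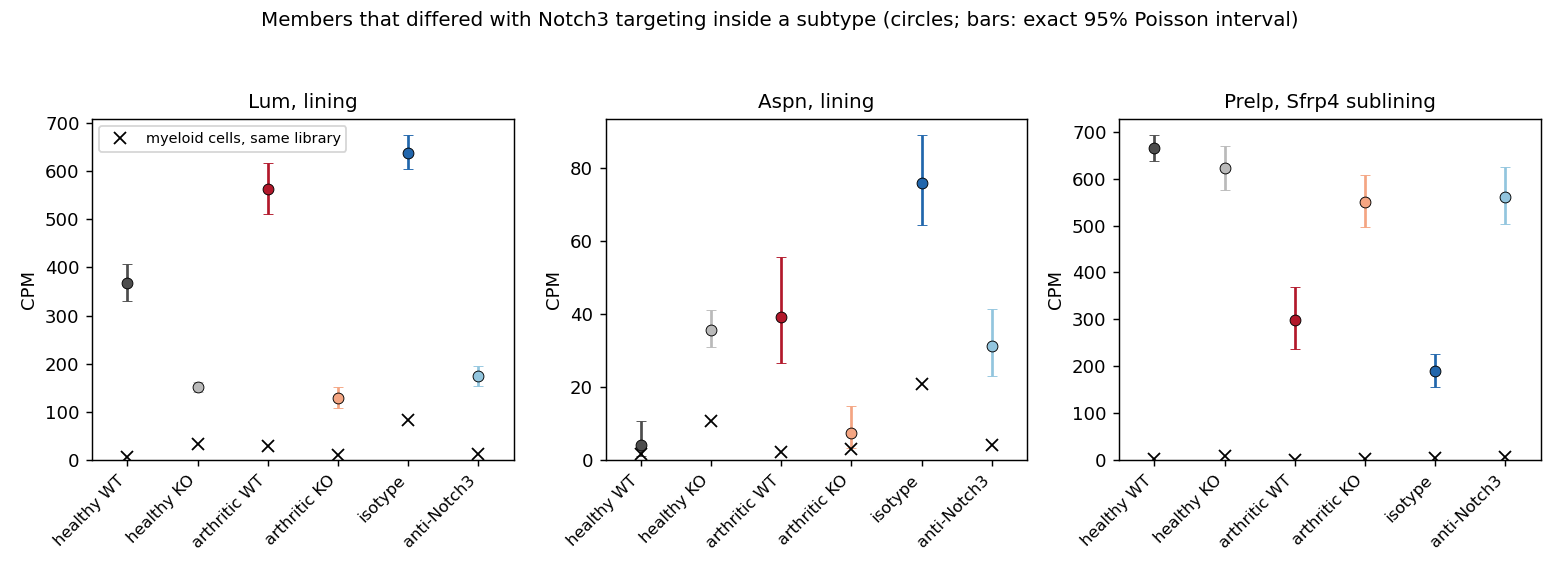
CPM (linear axes from 0) of the 3 members called within a subtype, in all 6 libraries; circles are the gated cells with exact 95% Poisson intervals (counting error only), crosses the myeloid cells of the same library. Lum in lining cells goes from 562 to 129 and from 638 to 174 CPM in the arthritic pairs, Aspn from 39.2 to 7.53 and from 76.0 to 31.2 CPM, and Prelp in Sfrp4 cells from 298 to 550 and from 190 to 561 CPM.

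Further members of the family were read in the same tests. Of 7 tested against the other subtypes, 4 fell in lining cells, Kera (-5.43), Ecm2 (-3.13), Podn (-2.23) and Chadl (-1.04), and none rose, where 21.8% of all genes were lower. In tendon-like cells 4 rose, among them the chondroadherin gene Chad (7.73), Epyc (5.35), Kera (5.0) and Ecm2 (1.83), and 1 fell, beside 8.67% higher and 6.24% lower of all genes. In fibrocartilage-like cells Chad (5.21), Epyc (2.86), Kera (2.62) and Ecm2 (1.01) rose, where 7.62% of all genes were called. Ecm2, the neighbour of Aspn, Omd and Ogn, was at 309 CPM in healthy wild-type fibroblasts, 172 in healthy knockout, 68.3 in arthritic wild type, 192 in arthritic knockout, 103 under isotype and 115 under antiNotch3. Its lowest value was in arthritic wild type, where Omd and Ogn were lowest too. For targeting in the arthritic pairs, 1 of 8 tested rose, Podn (0.91, SE 0.142, edgeR adjusted p = 0.0441), and 1 fell, Kera (-3.19, SE 0.428, edgeR adjusted p = 0.0339), where 2.32% of all genes were called. All calls in this and the next paragraph are by edgeR at an adjusted p of 0.05 over all genes.

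The fibrillar collagens to which these proteins bind were compared with them. Over all fibroblasts, 1 of 9 fell with targeting in arthritis, Col5a2 (-1.33, edgeR adjusted p = 0.0399), where 2.32% of all genes were called. The median of the 9 was -1.29, with 8 of 9 at an unadjusted p under 0.05, beside 2408 of 13272 genes. In lining cells all 6 collagens tested fell, among them Col3a1 (-2.04), Col5a2 (-1.84), Col5a3 (-1.54) and Col1a2 (-1.42), and in Pi16 cells all 6 fell, among them Col1a1 (-1.65), Col3a1 (-1.54), Col1a2 (-1.47) and Col5a1 (-1.08). Of all genes, 1.1% were called in lining and 3.9% in Pi16 cells. The Clic5-led cluster held 81 of 116 lining-gated cells in arthritic wild type and 151 of 157 in arthritic knockout. It held 212 of 249 under isotype and 189 of 195 under antiNotch3. Collagen values within that cluster alone are not given, and the part of this mix in the lining values was not tested. Cluster 9, which held most Pi16-gated cells under isotype but not in the other arthritic libraries, had Col1a1 at 10730 CPM over its cells, and cluster 5 at 3482 CPM; the part of this mix in the Pi16 values was not tested. Of the 8 members only Lum and Aspn, in lining cells, fell in the same tests, and the median of the 6 members tested was -0.14 in lining and 0.01 in Pi16 cells. In Ccl11 and Sfrp4 cells 0 of 6 collagens were called. At an unadjusted p under 0.05 were 0 and 3 of them, beside 160 of 2497 and 573 of 5668 genes.

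Enzymes that build the sugar chains were split. Over all fibroblasts 4 of 23 fell with targeting in arthritis: Csgalnact1 (-1.61), Chsy1 (-1.30), Chst11 (-1.24) and Xylt1 (-1.23), which start, extend or sulfate chondroitin sulfate chains, and 0 rose (median -0.38), where 2.32% of all genes were called. Within subtypes edgeR called 0 of 19 in lining, 0 of 11 in Sfrp4 and 0 of 2 in Ccl11 cells. In Pi16 cells 1 of 7 fell, Chpf (-0.99). Of all genes 1.1%, 2.17%, 0.0801% and 3.9% were called there, in that order. At an unadjusted p under 0.05 were 6, 1, 0 and 1 enzymes. Of all genes, 744 of 8107, 573 of 5668, 160 of 2497 and 746 of 5468 were. The part of the cell mix was not tested. In lining cells against the other subtypes 8 of 21 rose, among them Chst2 (4.57), Chst15 (2.34), Fam20b (1.02) and Chst11 (0.93), and 2 fell, beside 23.9% higher and 21.8% lower of all genes. Of the proteases known to cleave matrix or proteoglycans, 1 of 9 fell with targeting over all fibroblasts, Mmp3 (-3.81, edgeR adjusted p = 0.0123), where 2.32% of all genes were called. In lining cells 2 of 6 fell, Mmp3 (-6.21) and Mmp2 (-1.75), against 1.1% of all genes called. In Sfrp4 cells 2 of 7 fell, Mmp3 (-1.89) and Mmp13 (-1.72), against 2.17%. In Pi16 cells 2 of 6 fell, Bmp1 (-1.17) and Mmp2 (-1.12), against 3.9%. In Ccl11 cells 0 of 6 were called, against 0.0801%. None of 9 receptors and none of 3 TGF-beta ligands was called over all fibroblasts by edgeR. At an unadjusted p under 0.05 were 3 and 1 of them, beside 2408 of 13272 genes. Between subtypes, Tgfb2 (-3.07) and Tgfb3 (-1.52) fell and Tgfb1 rose (1.14) in lining cells.

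The genes most like each member over the 40 sums, by Pearson's r of log2 levels among 4951 genes of at least 20 CPM, differed between members. They were Ccdc80 (0.89) and Ecm2 (0.88) for Dcn, Enpp1 (0.83) and Wisp1 (0.83) for Bgn, and Fndc1 (0.90) and Itga11 (0.90) for Aspn. For class II they were Tmem119 (0.93) for Lum, Col11a1 (0.89) and Cilp2 (0.87) for Fmod, Aff3 (0.92) and Abi3bp (0.92) for Prelp, and Reck (0.86) for Omd. Ogn was most like Cldn10 (0.95). The sums share libraries, depth and subtypes, so these are descriptions.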

How the data were processed

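The authors deposited 1 matrix of whole-number UMI counts per library, with cell barcodes and gene symbols, made with Cell Ranger 3.0.2 on mm10 per the submitters' processing notes. Every deposited barcode holds at least 501 genes and at most 19.9% mitochondrial counts, and whether intronic reads were counted is not stated. From these counts, 414 of 18491 barcodes above 10% mitochondrial UMIs and 179 doublets called by Scrublet (0.990%) were dropped. Cells were clustered with scanpy 1.11.5 (2000 variable genes, 30 components, Leiden resolution 1), with no gene of the proteoglycan family among the clustering or gate genes. Fibroblast clusters held Pdgfra of at least 50 CPM and collagen of at least 1000 CPM. A cell entered a subtype when its mean marker score led the next by 0.25 and 2 markers were detected; 3346 fibroblasts entered none and stayed in the sums over all fibroblasts. The scoring and cluster rules were set after the data had been seen. The members and gene lists were chosen with earlier results of these data known.

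UMIs were summed per library, or per library and subtype, and tested with edgeR 4.0.16 (R 4.3.3; TMM scaling, filterByExpr, quasi-likelihood test, Benjamini-Hochberg over all genes tested, threshold 0.05), with DESeq2 1.42.0 as an alternative. Over all fibroblasts the model held the pair and Notch3 targeting, with separate targeting terms for the healthy and arthritic pairs (1 residual degree of freedom) or a single one (2). Targeting within subtypes was fitted with pair and targeting over the 4 arthritic libraries (1). The scripts were tested on simulated data. Log2 ratios of single libraries had 0.5 UMIs added to each sum, and their exact 95% intervals cover counting error only. The rule for naming genes took the 8 members, and other genes only from fixed lists of family members, collagens, chain enzymes, proteases, receptors and TGF-beta ligands, up to 4 called genes per list with the largest changes, or from the ranking of likeness. Levels over the 6 libraries rest on 6763595 to 16891993 fibroblast UMIs each.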

Additional observations from a re-analysis of the deposited data

Results flagged for a closer look

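For 7 members the healthy pair of libraries differed in one direction and both arthritic pairs in the other. The share of all genes that did so is not given, so this count has no background. The log2 ratio of healthy knockout over healthy wild type was -0.66 for Dcn, -0.64 for Prelp, -0.52 for Omd and -0.042 for Ogn, against values above 0 in both arthritic pairs for these 4 genes (0.72 and 0.51 for Dcn, 1.01 and 0.02 for Prelp, 1.86 and 0.85 for Omd, 1.37 and 0.67 for Ogn). It was 1.12 for Fmod, 0.10 for Aspn and 0.049 for Bgn, against values under 0 in both arthritic pairs (-0.16 and -4.56 for Fmod, -0.03 and -0.64 for Aspn, -1.06 and -0.87 for Bgn). The counting intervals included 0 in 1 arthritic pair for Prelp, Aspn and Fmod, and with equal weight of the subtypes Ogn was at 0.13 in the healthy pair and Omd at -0.11 in the antibody pair. The value of Ogn in the healthy pair lay above the median of all genes there (-0.11), and its direction is not firm. The difference itself was tested with edgeR and passed for none of the 7, with adjusted p-values of 0.170 (Omd) to 0.594 (Aspn).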

How the results depend on the processing

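No paired analysis by replicate number was possible because every group is 1 library; the pair of libraries was a term of each fit over all fibroblasts. For Notch3 targeting in the arthritic pairs (308 genes, 0 members), edgeR called 996 genes and 3 members without a filter on low counts, 653 and 2 without fibrocartilage-like cells and 527 and 2 with cells thinned to 2000 UMIs, and DESeq2 called 2 members. Over all 3 pairs (0 genes), 22 genes were called without the filter, 176 by DESeq2, 6 with thinned cells, 206 without the healthy pair and 1 without the antibody pair. There, Dcn (-0.013) and Prelp (-0.24) turned without the arthritic genotype pair, and Aspn (0.12) and Fmod (0.58) without the antibody pair. For arthritis (0 genes), 3 were called without the filter and 7 by DESeq2. For the difference between arthritic and healthy pairs (50 genes, 0 members), 633 genes and 1 member (Omd) were called without the filter, 160 genes by DESeq2, 324 without fibrocartilage-like cells, 118 in gated cells only and 304 with thinned cells.

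Between subtypes, a stricter gate turned values that had not passed: Dcn in Ccl11 cells (-0.052), Bgn in lining (0.081), Lum in Myoc (0.30), Fmod in Saa3 inflammatory (0.21) and Fmod in Sfrp4 cells (1.30, edgeR adjusted p = 0.0279). It ended the calls of Bgn in Myoc (-0.28) and Prelp in Ccl11 cells (-0.25) and made calls of Prelp in Myoc (0.80) and Lum in Ccl11 cells (1.02). It called 1278 genes in Myoc cells, against 1937, and 973 in tendon-like cells, against 873 higher and 628 lower. Without each library in turn, Omd in Ccl11 cells ran from -0.26 to 0.23, Prelp in Cthrc1 cells from -0.10 to 0.56, Bgn in lining from -0.13 to 0.20, Lum in Myoc from -0.37 to 0.15, and Fmod from -0.67 to 0.87 in Saa3 inflammatory and from -0.74 to 1.25 in Sfrp4 cells. Members called ran from 3 to 6 in Ccl11 and from 3 to 5 in Sfrp4 cells, and genes from 583 to 904 in Cthrc1 and from 974 to 1605 in tendon-like cells. No called member turned.

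Within subtypes, 1 member stayed called in lining cells with the stricter gate and 1 in the Clic5-led cluster, where Dcn was at 0.034. The stricter gate called 3 in Pi16 cells, with Aspn at -0.10, and median-of-ratios scaling called 0 genes in Ccl11 cells. Of the single-library ratios past 1.5-fold, the healthy pair had 1 by the mean over cells, 1 with equal weight of subtypes and 2 with tendon-like cells kept, against 4. Equal weight left 2 in the arthritic genotype pair, 1 in the antibody pair, 1 in wild type and 2 in the knockout, and turned Lum (0.063) and Ogn (0.13) in the healthy pair, Omd in the antibody pair (-0.11), Aspn (0.21) and Fmod (0.52) in wild type, and Dcn (-0.060), Bgn (0.15), Lum (-0.19), Omd (-0.48) and Prelp (-0.12) in the knockout. The causes were not tested.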

Other observations

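Outside fibroblasts, Aspn and Bgn were found in mural cells, the muscle-like cells around vessels. Aspn was at 943 CPM in mural cells of healthy wild type, 1381 in healthy knockout, 692 in arthritic wild type, 1596 in arthritic knockout, 1286 under isotype and 1522 under antiNotch3, above the level in fibroblasts of the same library except under isotype. For Bgn the values were 734, 1398, 2590, 1050, 2207 and 1171 CPM, listed likewise, highest in the 2 untargeted arthritic libraries, as in fibroblasts. Dcn, at 0 to 1131 CPM, lay far under its level in fibroblasts, and Fmod and Omd had no UMI in these cells. Each library held only 10 to 33 mural cells, so no test was made. Endothelial cells held Bgn at 341 to 799 CPM and no UMI of Omd, and the 8 members took 0.00751% to 0.0333% of UMIs in myeloid cells.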
